A study of Mus musculus with 8 samples.

Results

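The regions described here carried a C/EBPα peak in both DC and both WT libraries and in neither DE library. Merging the 6 deposited C/EBPα peak lists, with an overlap of 1 bp as enough to join peaks, gave 249466 regions on the autosomes. Of these, 25119 were called in both DC and both WT libraries, and 279 of the 25119 (1.11%) had no call in either DE library. The other regions called in both DC and both WT libraries comprised 1812 with a call in 1 DE library and 23028 called in all 6 libraries. Because the calls themselves chose the 279 regions, their count and their DE status are a description without a test.

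C/EBPα is a basic leucine zipper transcription factor that drives granulocyte and monocyte development from bone marrow progenitors. It binds as a dimer to a palindromic sequence, often beside the ETS factor PU.1 at myeloid enhancers. CUT&RUN maps such binding with an antibody that tethers a nuclease to the bound protein, so that the DNA beside it is cut loose and sequenced. Zeb2, whose enhancer was altered here, encodes a zinc-finger repressor that acts in dendritic cell and monocyte fate.

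The cells were Lin- KIT hi-int FLT3+ progenitors sorted from mouse bone marrow, with antibody to C/EBPα. They had 1 of 3 genotypes of the Zeb2 -165 kb enhancer, labelled DC, DE and WT, and the labels do not spell out what DC and DE change. Each genotype had 2 libraries, 1 in each of 2 batches, and replicate numbers below follow the batch. The labels name no age, sex or strain, and leave unsaid if the replicates are different mice, so spread between libraries may be technical. Peak lists of binding hold no expression, so the sorted cell type could not be checked against its markers. The 2 IgG libraries from WT cells were not analysed here, so no background from them stands beside the values.

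Libraries differed in peak number and pileup. The lists hold no read totals, so these values are not a measure of depth alone. The lists held 169943 and 50221 peaks in DC, 52474 and 57441 in DE and 82080 and 56940 in WT (batch 1 and batch 2). The summit pileup, which counts the fragments covering the highest point of a peak, had a median at the 23028 regions called in all 6 libraries of 58 and 24 fragments in DC, 42 and 32 in DE and 34 and 35 in WT. DC replicate 1 stood apart with the most peaks and the highest pileup, and DC replicate 2 had the lowest pileup. Leaving out a library relaxes the rule, and the number of regions then came to 341 without DC replicate 1, 1030 without DC replicate 2, 741 without DE replicate 1, 1629 without DE replicate 2, 803 without WT replicate 1 and 593 without WT replicate 2. Within batch 1 alone 7028 of 36255 regions called in DC and WT had no DE call, and within batch 2 alone 2143 of 31213.

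Sequence was at hand for promoters only, from RefSeq on GRCm38.p6, the assembly that mm10 names. The 279 regions overlapped 37 promoter windows, each reaching from 250 bases before to 50 after a start of transcription. The windows below belong to 5 of the best-ranked regions within 1 kb of a gene end, and to Foxf2, the protein-coding promoter among the 37 that held the C/EBP letters. The rank used here and below is a region's poorest rank by the authors' −log10 q among the 2 DC and 2 WT lists. The sequences show how the promoters overlapped by these regions differed in composition and that most held no C/EBP letters. Telo2 (chr17:25115856-25116155, minus strand) encodes a co-chaperone of kinases such as ATM and mTOR, Snrpa (chr7:27195711-27196010, minus strand) a protein of the U1 splicing particle, and Traf3ip1 (chr1:91494418-91494717, plus strand) a component of intraflagellar transport in cilia. Slc2a8 (chr2:32982034-32982333, minus strand) encodes a glucose transporter, Thg1l (chr11:45955454-45955753, minus strand) a transfer RNA guanylyltransferase, and Foxf2 (chr13:31625566-31625865, plus strand) a forkhead transcription factor. Capitals mark matches on either strand to the C/EBP letters TTGCNNAA or to the E-box letters CAGCTG or CAGGTG. They are marked anywhere in the window, inside the called region or not. Each sequence runs 5′ to 3′ along the gene's strand.
Telo2: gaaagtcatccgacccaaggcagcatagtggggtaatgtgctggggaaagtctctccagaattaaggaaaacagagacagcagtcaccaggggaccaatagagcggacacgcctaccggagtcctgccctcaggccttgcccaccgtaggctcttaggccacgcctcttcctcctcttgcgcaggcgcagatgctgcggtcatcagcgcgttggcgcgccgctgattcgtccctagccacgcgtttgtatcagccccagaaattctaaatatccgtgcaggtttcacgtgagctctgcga
Snrpa: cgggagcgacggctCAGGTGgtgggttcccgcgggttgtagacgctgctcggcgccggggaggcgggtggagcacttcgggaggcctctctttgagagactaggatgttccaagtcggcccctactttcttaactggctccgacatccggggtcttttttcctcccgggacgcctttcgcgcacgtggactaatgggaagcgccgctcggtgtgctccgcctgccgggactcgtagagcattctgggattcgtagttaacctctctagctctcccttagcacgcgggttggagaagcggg
Traf3ip1: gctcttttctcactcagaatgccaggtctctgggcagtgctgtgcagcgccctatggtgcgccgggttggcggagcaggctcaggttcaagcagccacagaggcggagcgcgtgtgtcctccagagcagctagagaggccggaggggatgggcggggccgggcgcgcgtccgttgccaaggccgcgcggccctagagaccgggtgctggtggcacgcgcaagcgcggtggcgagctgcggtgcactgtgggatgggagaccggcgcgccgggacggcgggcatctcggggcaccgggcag
Slc2a8: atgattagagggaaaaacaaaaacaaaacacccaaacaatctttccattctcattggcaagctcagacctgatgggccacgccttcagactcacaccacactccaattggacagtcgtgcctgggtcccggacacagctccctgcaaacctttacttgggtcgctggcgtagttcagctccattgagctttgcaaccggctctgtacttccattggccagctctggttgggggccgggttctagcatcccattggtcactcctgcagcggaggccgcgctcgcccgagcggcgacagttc
Thg1l: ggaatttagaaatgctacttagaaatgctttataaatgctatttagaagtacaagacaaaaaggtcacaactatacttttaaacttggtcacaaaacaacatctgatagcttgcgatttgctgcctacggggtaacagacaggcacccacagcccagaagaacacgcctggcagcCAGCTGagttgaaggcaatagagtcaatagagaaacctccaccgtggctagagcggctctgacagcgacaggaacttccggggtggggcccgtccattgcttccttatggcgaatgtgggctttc
Foxf2: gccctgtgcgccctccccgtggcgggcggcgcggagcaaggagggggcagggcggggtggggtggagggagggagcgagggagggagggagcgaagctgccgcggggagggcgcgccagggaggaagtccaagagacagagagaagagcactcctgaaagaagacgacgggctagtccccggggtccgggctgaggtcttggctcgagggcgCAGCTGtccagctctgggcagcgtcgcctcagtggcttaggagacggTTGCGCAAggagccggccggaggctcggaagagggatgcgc

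The C/EBP letters TTGCNNAA lay in 3 of the 37 windows (8.11%), against 12.9% of the 4318 windows overlapped by regions called in all 6 libraries and 10.9% of all 31365 autosomal windows. Besides Foxf2, where the match began 9 bases after the start, they lay in the windows of the non-coding genes Gm35808 and Gm32236. The E-box CAGCTG lay in 10 windows (27%), against 13.5% and 16.3%. In Thg1l it began 75 bases before the start (-75), outside the called region. The E-box CAGGTG lay in 7 windows (18.9%), against 14.9% and 20.5%. In Snrpa it began at -236, also outside the called region. The PU.1 letters GAGGAAGT lay in 3 windows (8.11%), against 4.12% and 3.25%. The RUNX letters TGTGGT lay in 8 windows (21.6%), against 14.5% and 16.7%, and the GATA letters AGATAA in 4 (10.8%), against 5.7% and 11.2%. The IRF motif lay in 3 windows (8.11%), against 3.13% and 3.45%, and the AP-1 letters TGANTCA in 2 (5.41%), against 5.6% and 7.85%. No motif contains another, and each was counted once per window. The windows without a DE call had a median of 65.3% G and C and 23 CpG dinucleotides, against 60.7% and 21 for regions called in all 6 libraries and 53% and 7 for all windows. All motifs were searched on both strands over the whole window, so a match need not lie in the called region. The overlap of region and window was as small as 26 bases, at Ehbp1. With 37 windows a share of this kind rests on very few matches.

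The 279 regions had low pileups and lower enrichment over local background than regions called in all 6 libraries. The pileup had a lowest, median and highest value of 6, 18 and 4293 fragments in DC replicate 1, 4, 9 and 587 in DC replicate 2, 6, 14 and 1869 in WT replicate 1 and 5, 13 and 1274 in WT replicate 2. These medians lay below those of the regions called in all 6 libraries in each of the 4 libraries. The authors' fold at the summit over the local background had medians of 7.58 and 5.85 in DC and 5.57 and 5.54 in WT, against 20.8 and 12.04 in DC and 11.5 and 10.4 in WT for regions called in all 6. The authors' −log10 q had medians of 11.3 and 5.87 in DC and 6.05 and 6.80 in WT. The regions were 115 to 622 bp wide, with a median of 260 bp, against a median of 435 bp for regions called in all 6 libraries. Their summits lay a median of 78 bp apart over the 4 libraries, and in 81 regions within 50 bp of each other. In 60 regions the background was at its lowest value, the floor, in all 4 libraries, and in 39 it was at least 5 times the floor in at least 1 of them.

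**Figure D1:**
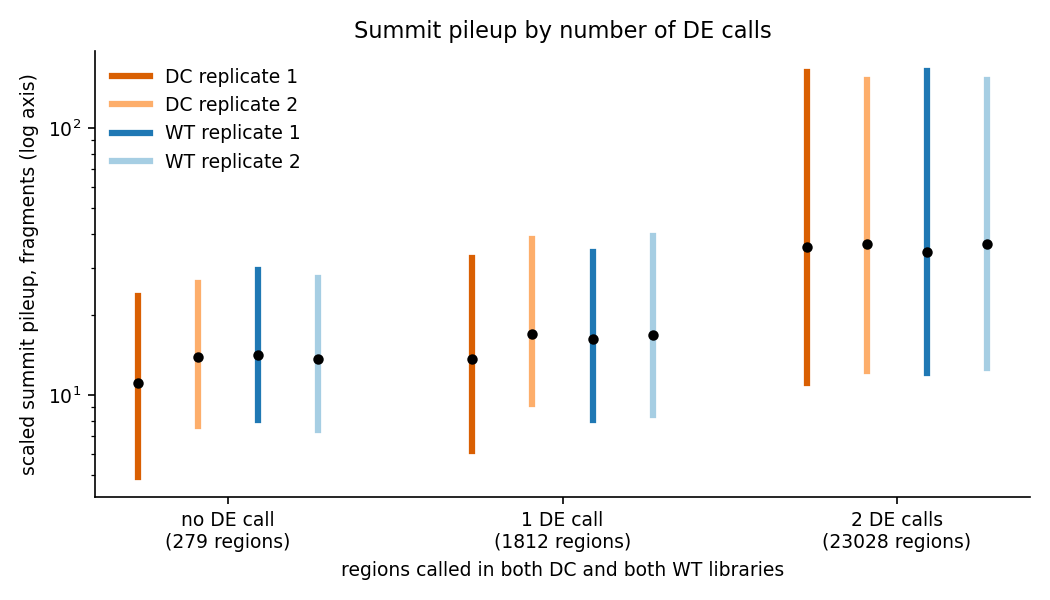
Summit pileup in fragments (vertical log axis), for regions called in both DC and both WT libraries with 0, 1 or 2 DE calls. The pileup was scaled between libraries by the median log2 deviation over regions called in all 6. Dots are medians and bars run from the 5th to the 95th percentile over regions. The 279 regions without a DE call sit lowest, with scaled medians from 11.1 to 14.1, and those with 1 DE call between them and the rest.

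Regions without a DE call were mostly weak, and their share was smaller at higher pileup. For this comparison the pileup was scaled between libraries by the median log2 deviation over regions called in all 6, and its geometric mean was taken over the 4 libraries with calls. Under 10 scaled fragments, 47 of 225 regions (20.9%) had no DE call, and from 10 to 15 fragments 148 of 2304 (6.42%). From 15 to 20 fragments the count was 65 of 3523 (1.85%), from 20 to 30 fragments 14 of 5570 (0.251%), and over 30 fragments 5 of 13497 (0.037%). Missing calls in the other genotypes also lay mostly at low pileups. Regions called in both DE and both WT libraries lacked any DC call in 129 of 25363 cases (0.509%), with 11.2% under 10 fragments and 0 of 13496 regions over 30. Regions with a call in all 4 DC and DE libraries lacked any WT call in 930 of 27306 cases (3.41%), with 21.9% under 10 fragments and 0.318% over 30. The absence of a DE call was thus rarer than the absence of a WT call and more frequent than the absence of a DC call, in counts that share libraries and were not tested.

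**Figure D2:**
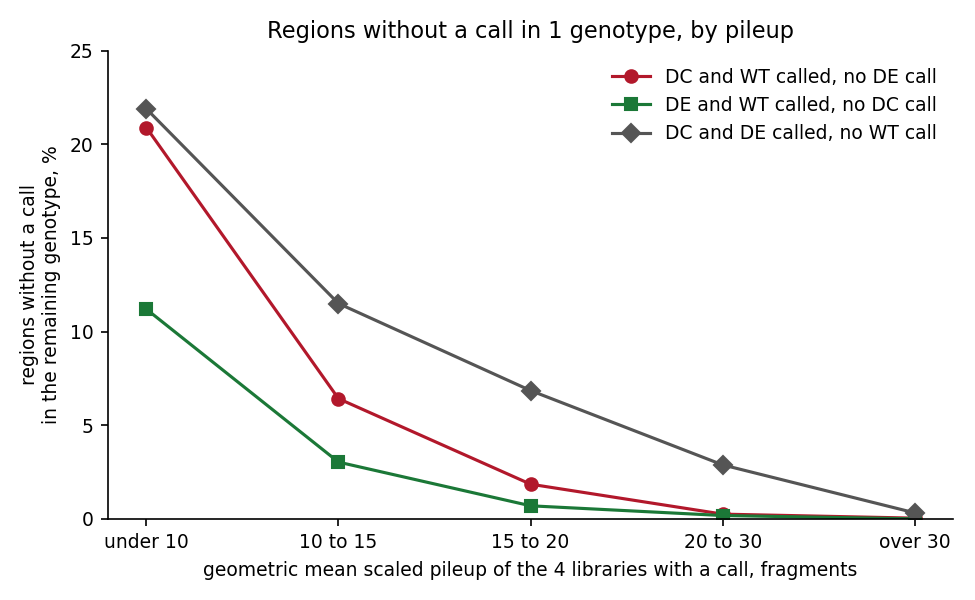
Percent of regions with no call in 1 genotype among regions called in all 4 libraries of the other 2 genotypes (vertical axis), by geometric mean scaled pileup in those 4 libraries (horizontal axis, fragments). Each share is largest at the lowest pileups, where 20.9%, 11.2% and 21.9% lacked a DE, DC and WT call, and at most 0.318% over 30 fragments.

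A missing call gives an upper limit on the DE pileup and not an absence of binding. For each region the largest whole pileup whose Poisson p-value stays short of the weakest peak in a DE list was computed, with the WT background of the region scaled to that library. This limit had a median of 6 fragments in DE replicate 1 and 3 in DE replicate 2. In 239 of the 279 regions (85.66%) the scaled pileups of both DC and both WT libraries exceeded the limit of the DE library of their batch, against 24784 of all 25119 regions called in DC and WT (98.67%). In 77 of the 279 (27.6%) they exceeded it by more than a factor of 2 in all 4 libraries, against 20668 of the 25119 (82.3%). The median ratio to the limit was 1.85 in DC replicate 1, 3.16 in DC replicate 2, 2.42 in WT replicate 1 and 3.10 in WT replicate 2. In the other 40 regions at least 1 library had a pileup that the DE library could have held without a call. A peak call also needs a minimum length, which the limit does not include.

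The best-ranked regions lay near genes of many functions. Rank 1 was a region 1.30 kb from Gucy2d (chr7:98478782-98479054), which encodes a receptor guanylate cyclase of olfactory neurons. It had 46 and 16 fragments in DC and 30 and 21 in WT, and pileups up to 6 and 3 fragments could have gone without a call in DE replicates 1 and 2. Every DC and WT value there stood above both limits, with the smallest scaled ratio at 5.66. A region inside Ipcef1 (chr10:7045757-7046150), a partner of cytohesin exchange factors, had 30 and 11 fragments in DC and 20 and 25 in WT. A region inside Lgals9 (chr11:78967516-78967672), which encodes the lectin galectin-9, had 38 and 19 fragments in DC and 17 and 17 in WT. The DE limits were 6 and 3 fragments at each of these, and the smallest scaled ratios were 3.69 and 3.42. Inside Prrc2b (chr2:32154634-32154871) the pileup was 27 and 11 fragments in DC and 29 and 20 in WT.

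Next by rank came a region 2.13 kb from Krt18 (chr15:102025929-102026086), a keratin gene, with 26 and 22 fragments in DC and 23 and 16 in WT. A region 9.62 kb from Stx11 (chr10:12928328-12928601), whose syntaxin acts in the release of cytotoxic granules, had 28 and 9 fragments in DC and 17 and 13 in WT. A region 10.2 kb from Enpp6 (chr8:46928846-46928992), a choline phosphodiesterase gene, had 31 and 10 fragments in DC and 37 and 18 in WT. Inside Slc24a1 (chr9:64939434-64939617), an ion exchanger gene of rod photoreceptors, the pileup was 23 and 16 fragments in DC and 24 and 17 in WT. The DC and WT ranges overlapped at each of these 4 regions, also after scaling. Elf1 and Bach2 complete the 10 best-ranked regions and are given with the transcription factors below. By the ratio to the DE limit, 8 of the same 10 were among the first 10, joined by regions inside Tmod3, an actin-capping gene, with 3.20, and 14.2 kb from Foxe1, a forkhead factor gene, with 2.98. The best poorest rank of any of the 279 regions was 15188, so none was among the strongest peaks in every list.

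**Figure D3:**
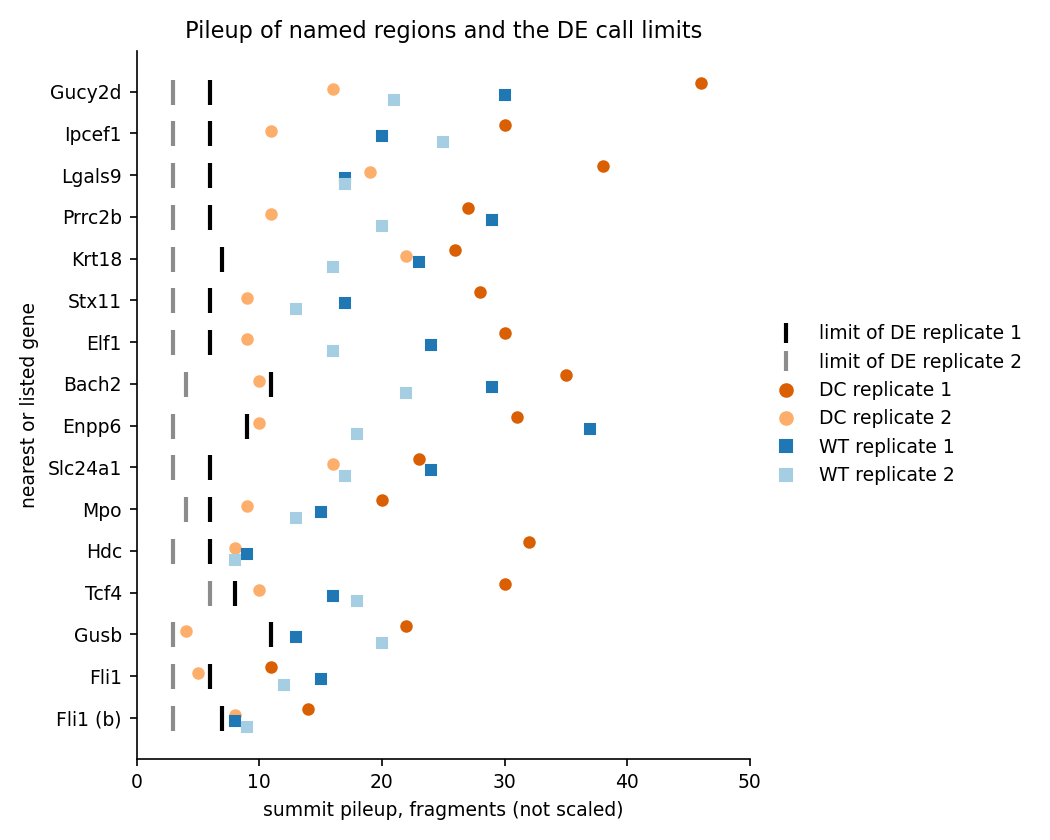
Summit pileup in fragments (horizontal axis, not scaled) of the 10 best-ranked regions and, beneath them, of the regions within 10 kb of listed genes, named by gene. Circles are the DC libraries, squares the WT libraries, and upright bars the largest pileup that could have gone without a call in each DE library. At Gucy2d all 4 values (16 to 46) lie right of both limits (6 and 3), while at Gusb DC replicate 2 has 4 fragments beside a limit of 3.

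Of 283 genes on 18 lists of cell type markers and pathways that were matched on the autosomes, 7 (2.47%) had such a region inside or within 10 kb, against 288 of all 20665 autosomal protein-coding genes (1.39%). The 7 were Elf1, Bach2, Fli1, Tcf4, Mpo, Hdc and Gusb. None of 20 monocyte and macrophage genes, 15 cDC1 genes, 14 cDC2 genes, 15 T and NK genes, 14 erythroid and megakaryocyte genes and 20 non-haematopoietic genes had one. Nor did any of 9 C/EBP family genes, 26 cytokine and growth factor receptor genes, 21 chemokine genes and 24 inflammatory genes. At a share of 1.39%, lists this short hold less than 1 such gene on average. Zeb2 itself stands on 4 of the lists and had none, and the nearest of the 279 regions lay inside Nek6, a mitotic kinase gene, 6450 kb away on the same chromosome. Regions called in both DC and both WT libraries lay within 10 kb of 19 of the 20 monocyte and macrophage genes, 7 of the 9 C/EBP family genes and 24 of the 26 receptor genes. They also lay near 13 of 13 housekeeping genes, but near 5 of 15 T and NK genes and 3 of 20 non-haematopoietic genes. The share of all genes with such a region is not given here.

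The transcription factor genes on the lists had regions inside the gene body. Elf1, an ETS factor of blood cells, held a region (chr14:79499299-79499593) with 30 and 9 fragments in DC and 24 and 16 in WT, a smallest scaled ratio to the DE limit of 3.69 and the nearest DE peak 15901 bp away. Bach2, a repressor in lymphoid and progenitor cells, held a region (chr4:32570085-32570261) with 35 and 10 fragments in DC and 29 and 22 in WT. The DE limits there were 11 and 4 fragments, and each scaled DC and WT value was above the limit of its own batch, with a smallest ratio of 2.35. Tcf4, the E protein that specifies plasmacytoid dendritic cells, held a region (chr18:69662197-69662527) with 30 and 10 fragments in DC and 16 and 18 in WT, where the background reached 7.04 times the floor. In scaled pileup, both DC libraries lay below both WT libraries at Bach2 (21.6 and 15.3 in DC, 29.3 and 23.1 in WT). That order held in 17.3% of all 25119 regions called in DC and WT. The Bach2 difference was not called (adjusted p = 0.525, limma with batch). The scaled values of the groups overlapped at Elf1 (18.5 and 13.8 in DC, 24.2 and 16.8 in WT) and at Tcf4 (18.5 and 15.3 in DC, 16.2 and 18.9 in WT). These orders depend on the scaling. Scaled by the background floor instead, both DC libraries lay above both WT libraries at Bach2, Elf1 and Tcf4.

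Fli1, an ETS factor of stem and progenitor cells, was the listed gene with 2 such regions. The first (chr9:32515980-32516199) had 11 and 5 fragments in DC and 15 and 12 in WT. The second (chr9:32519632-32519877) had 14 and 8 fragments in DC and 8 and 9 in WT. Both were weak, and DE peaks lay 460 and 388 bp from them. The other listed genes had 1 region each. The region nearest to Mpo, the myeloperoxidase gene of neutrophil granules, lay inside the neighbouring Lpo, a related peroxidase gene (chr11:87811570-87811805, 7158 bp from Mpo), with 20 and 9 fragments in DC and 15 and 13 in WT. Hdc, which encodes the enzyme that makes histamine in mast cells and basophils, held a region (chr2:126619289-126619535) with 32 and 8 fragments in DC and 9 and 8 in WT. In scaled pileup, both DC libraries (19.8 and 12.3) lay above both WT libraries (9.09 and 8.40) there. That order held in 16.9% of all 25119 regions called in DC and WT. The Hdc difference was not called (adjusted p = 0.312, limma with batch). Gusb, a lysosomal enzyme gene used here as a housekeeping gene, held a region (chr5:130000903-130001046) with 22 and 4 fragments in DC and 13 and 20 in WT, and a DE peak lay 385 bp away.

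Beyond the lists, the nearest genes were grouped by known role after the members had been seen, so these groups describe and do not test. Among antigen presentation and checkpoint genes, Cd74 encodes the invariant chain of MHC class II, and its region (chr18:60802956-60803203, 0.646 kb from the gene) had 34 and 6 fragments in DC and 17 and 9 in WT. A DE replicate 2 peak lay 41 bp from that region. H2-DMa, whose product loads peptide on class II molecules, had 14 and 10 fragments in DC and 9 and 15 in WT, and Pdcd1lg2, which encodes the checkpoint ligand PD-L2, had 15 and 7 in DC and 16 and 16 in WT. Regions within 10 kb of the myeloid surface receptor genes Clec4d, Cd300c, Cd300e, Siglec1 and Ffar2 had 12 to 37 and 4 to 16 fragments in the DC libraries and 12 to 17 and 8 to 25 in the WT libraries. Of those 5, 3 exceeded the DE limit in all 4 libraries, against 239 of all 279 regions (85.66%).

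The adhesion genes Lgals9, Cd9, Itga6, Itgb8 and F11r had 16 to 38 and 4 to 19 fragments in the DC libraries and 9 to 31 and 10 to 20 in the WT libraries, and all 5 exceeded the limit. Itga6, an integrin chain of stem and progenitor cells, had 27 and 11 fragments in DC and 22 and 16 in WT, but DE peaks lay as close as 242 bp. Of 13 regions at 12 transcription factor genes, 11 exceeded the limit, among them Max, the partner of Myc proteins, with 31 and 16 fragments in DC and 11 and 15 in WT. Of 7 signalling genes 6 exceeded it, including Ptpn11, which encodes the phosphatase SHP2, with 36 and 5 fragments in DC and 13 and 15 in WT. A DE peak lay within 1 kb of 4 of the 7. The 6 regions at the actin genes Gsn, Lsp1, Tmod3, Inf2 and Rhof all exceeded the limit, and 4 of them also had a DE peak within 1 kb. Among all 279 regions, 239 (85.66%) exceeded the limit and 77 had a DE peak within 1 kb. With so few regions per group, no difference between groups was tested. Genes with 2 regions within 10 kb were Agap2, Fli1, Rpl6, Spsb4, Tbc1d8 and Tmod3, and no gene had more.

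DE binding was often close by. A peak of at least 1 DE library lay within 200 bp of 14 of the 279 regions, within 500 bp of 33, within 1 kb of 77 and within 10 kb of 220. A region called in all 6 libraries lay within 1 kb of 30 and within 10 kb of 134. The 279 regions did not gather at single loci, since only 8 lay within 10 kb of another. They were spread over all 19 autosomes, with between 6 on chromosome 14 and 29 on chromosome 2. The share of DC and WT regions without a DE call ran from 0.632% on chromosome 14 to 1.5% on chromosome 4.

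The largest class of these regions lay inside genes. Of the 279, 57 (20.4%, 95% Wilson interval 16.1 to 25.5) lay within 1 kb of an end of a protein-coding gene. Another 137 (49.1%, 43.3 to 54.9) lay further inside genes, and 85 (30.5%, 25.4 to 36.1) lay intergenically. Regions called in all 6 libraries were divided 25.1%, 38.3% and 36.6% over the same classes. The intervals of the 279 regions inside a gene and between genes did not reach these shares, and that for gene ends held the 25.1%. Regions called in all 4 DC and DE libraries and no WT library lay inside genes in 47.2% of cases, so this share was not particular to the 279. Of all autosomal regions, 43.3% lay inside genes, which is the lower end of the interval of the 279. These intervals cover counting error over regions only. A centre within 500 bp of a protein-coding start was found for 36 of 268 regions (13.4%), against 17.8% of regions called in all 6 libraries. The starts used did not cover chromosome 18 and had gaps elsewhere. For the region 4.78 kb from Rnf139, for example, the nearest start among them was 1132350 bp away. Regions between genes lay a median of 13.9 kb from the nearest gene, against 18.9 kb. Gene-end regions carried more background: 18 of 57 (31.6%) had at least 5 times the floor, against 8.76% of those inside genes and 10.6% of those between genes.

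**Figure D4:**
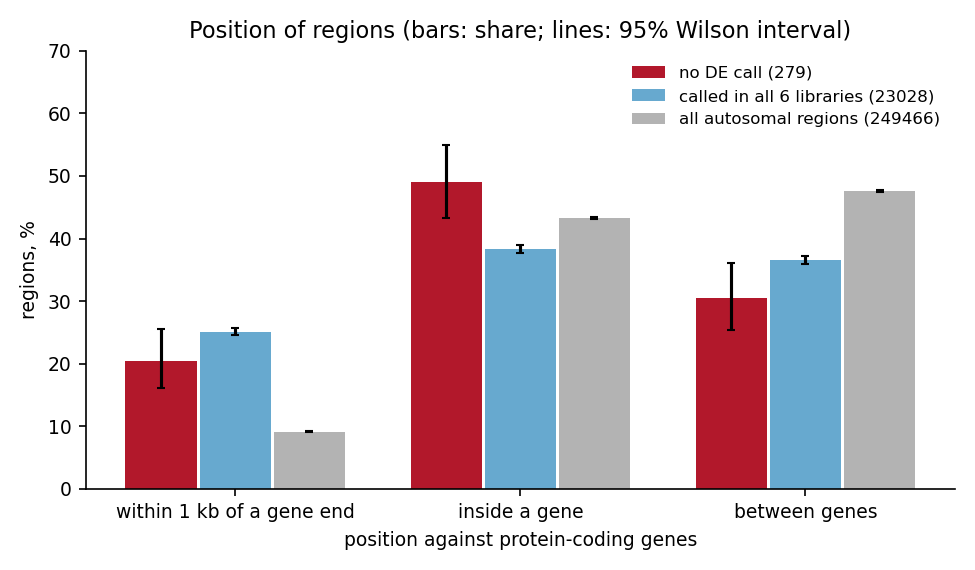
Percent of regions (vertical axis) in 3 position classes (at a gene end, with a margin of 1 kb, further inside genes, and between them), for the 279 regions without a DE call, regions called in all 6 libraries and all autosomal regions. Bars are shares and lines are 95% Wilson intervals. The 279 regions have the tallest bar inside genes (49.1%, against 38.3% and 43.3%).

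The 10 best-ranked gene-end regions are given here, apart from that at Cd74 above. The first lay at 1810037I17Rik (chr3:122924087-122924539), with 24 and 14 fragments in DC and 15 and 24 in WT. At Telo2, whose promoter is printed above, the region (chr17:25115870-25116170) had 24 and 10 fragments in DC and 17 and 22 in WT, with summits 62 to 96 bases before the start. At Upp1, a uridine phosphorylase gene, it had 22 and 11 in DC and 11 and 26 in WT, and at Cars, the cysteinyl transfer RNA synthetase gene, 18 and 8 in DC and 12 and 10 in WT. Snrpa had 18 and 13 fragments in DC and 13 and 26 in WT, Traf3ip1 17 and 11 in DC and 15 and 36 in WT, and Slc2a8 18 and 13 in DC and 19 and 23 in WT. Bahd1, a chromatin silencing gene, had 15 and 18 fragments in DC and 18 and 20 in WT, and Thg1l 29 and 14 in DC and 26 and 36 in WT. Peaks of DE replicates 1 and 2 lay 127 and 137 bp from the Thg1l region and 143 and 125 bp from the Snrpa region. At Telo2, Traf3ip1 and Slc2a8 they lay further off, the closest at 7289 bp (Slc2a8). The background reached 11.8 times the floor at Thg1l, 6.81 times at Snrpa, 6.16 times at Bahd1, 5.28 times at Traf3ip1 and 5.07 times at Upp1. At Foxf2 the pileup was only 7 and 4 fragments in DC and 14 and 9 in WT, with DE limits of 6 and 3. The scale factors were 0.617 in DC replicate 1 and 0.836 in DE replicate 1. Once scaled, the DC replicate 1 value did not exceed the limit, so DE replicate 1 could have held it without a call.

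DC and WT were then compared at these regions, which asks how strongly C/EBPα was bound in each where both had a call. The rule requires calls in all 4 libraries, and a call is itself a minimum on the pileup that differs between libraries. The smallest called pileup came to 3.09 and 6.14 scaled fragments in DC and 6.06 and 5.25 in WT. The comparison at such weak regions is therefore not independent of the rule. Log2 scaled pileups of all 25119 regions called in DC and WT were fitted with limma (Benjamini-Hochberg adjustment). No region was higher in DC (0%) and none lower (0%) at an adjusted p under 0.05, and none of the 279; at an unadjusted p under 0.05 there were 1444 of all and 11 of the 279. With batch as a term, a pairing the labels give, 796 regions were higher in DC (3.17%) and 336 lower (1.34%). Of the 279, 2 were then higher and 2 lower. With batch and scaling by the background floor, 76 of the 279 were higher and 0 lower, against 56.6% and 0.104% of all 25119 regions. With batch and quantile normalization, 2 of the 279 were higher and 1 lower, against 3.5% and 1.69% of all 25119 regions.

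The higher ones lay 48.4 kb from Prok2, a secreted signalling peptide gene, and 1.01 kb from Gstm4, a glutathione transferase gene. The Prok2 region (chr6:99774801-99774934) had 33 and 26 fragments in DC and 8 and 12 in WT, a log2 difference of 1.50 ± 0.41 (SE, limma with batch, adjusted p = 0.0227). The Gstm4 region (chr3:108046193-108046433) had 48 and 22 fragments in DC and 12 and 12 in WT, a log2 difference of 1.36 ± 0.40 (adjusted p = 0.0346, limma with batch). In both, each DC library stood above each WT library. The region 28.8 kb from Pde4b (chr4:102636035-102636285), a gene for a cAMP-degrading enzyme, was lower, with 24 and 6 fragments in DC and 37 and 22 in WT and a log2 difference of -1.33 ± 0.40 (adjusted p = 0.0432, limma with batch). Its background reached 7.08 times the floor, and its call ended when the block was fitted with floor scaling (log2 difference -0.47, adjusted p = 0.317, limma). The other lower region, 326 kb from Alkbh8 (chr9:3009320-3009499), had 1613 and 480 fragments in DC and 1386 and 1027 in WT, with a log2 difference of -0.52 ± 0.12 (adjusted p = 0.0040, limma with batch). This direction depends on the scaling: with batch and floor scaling the difference was 0.34 (adjusted p = 0.0271, limma), and with batch and quantile normalization it was 0. The Prok2 and Gstm4 regions were higher under both. The Alkbh8 region and its neighbour at 328 kb (chr9:3007264-3007649) were the only 2 of the 279 with a fold under 2 in all 4 libraries, on backgrounds of 392 to 1272 and 439 to 3246 fragments. Without batch as a term the smallest adjusted p among the 279 was 0.653.

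As a group, the 279 regions had a median log2 difference between DC and WT of -0.21, against -0.03 over all 25119 regions, and 93 were positive. Scaled by the background floor the medians were 0.65 and 0.83, with 245 positive, so the sign of the group's median depends on the scaling. In batch 1 the median DC to WT ratio was 0.738 and 195 regions were lower in DC, against 0.974 and 143 in batch 2. In batch 1 the smallest scaled pileup that could be called was also lower in DC than in WT (3.09 and 6.06), so the rule admitted lower values in DC than in WT there, and these medians are a description without a test. Over all 25119 regions the ratios were 0.982 and 0.981. Without DC replicate 1 the median was -0.03, and without DC replicate 2 it was -0.40. Both DC libraries lay above both WT libraries in 30 of the 279 regions, while 16.9% of all 25119 regions had that order. They lay below both WT libraries in 67 of the 279, and in 17.3% of all 25119 regions. These counts use the scaling over regions called in all 6 and are not given for floor scaling.

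**Figure D5:**
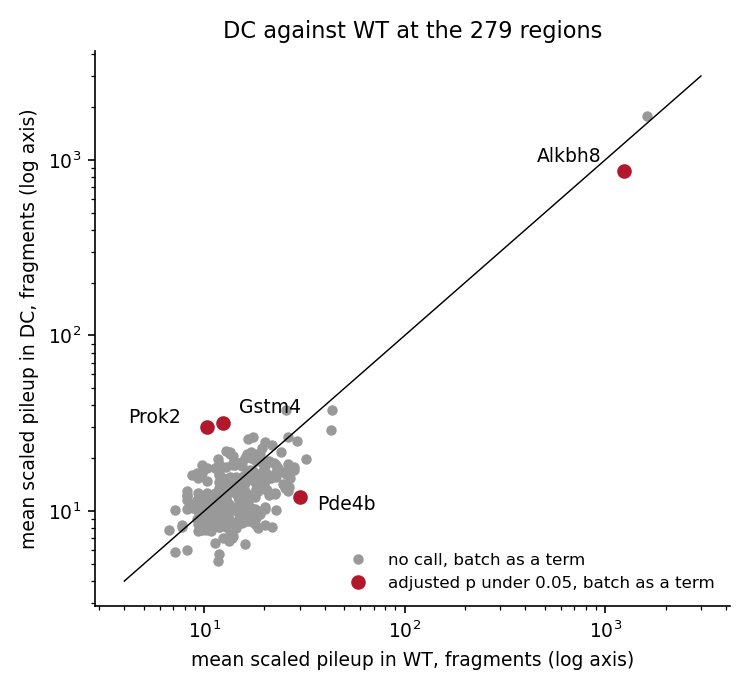
Mean scaled pileup in DC (vertical log axis, fragments) against WT (horizontal log axis, fragments) for each of the 279 regions, with the line of equality. Red points passed an adjusted p under 0.05 in limma with batch as a term. Most points lie between 5 and 45 fragments, and the 2 near Alkbh8 stand far up the axes.

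At the edge of the rule, the weakest of the 279 lay near Snx5, Socs5 and Nol4l. Their lowest −log10 q in any DC or WT list was 1.04, 1.09 and 1.09, and a region near Hs2st1 tied with the last. The regions that just failed the rule lay in Parp8 and Nrg1 and near Hmgb1. They had a single DE call, in DE replicate 2, with −log10 q of 1.12, 1.12 and 1.16 and pileups of 8, 8 and 11 fragments. Requiring −log10 q of at least 2 in all 4 DC and WT lists kept 207 of the 279, and at least 5 kept 66.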

How the data were processed

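C/EBPα CUT&RUN was analysed from the 6 deposited peak lists, 1 per library. The build was mm10, and MACS2 2.2.9.1, HOMER, Bowtie2, Trimmomatic and SAMtools are named, per the submitters' processing notes; the role of each, and any use of IgG as control, is not given in the sources used here. In the deposited lists the authors give each peak a fold over local background (a ratio), a −log10 p-value, a −log10 q-value and a score, which was not used as a measure. A deposited merged table of coordinates was not used.

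Merging used pandas 2.3.3 and numpy 2.4.6 in Python 3.11.15, and coordinates are 1-based. Pileup k and background λ were recovered from fold = (k + 1)/(λ + 1) and a Poisson tail (scipy 1.17.1), with a tolerance of 5% of a whole step. The files hold no read totals, so the sequencing depth is unknown. Limma 3.58.1 (R 4.3.3, trended variance) tested DC against WT, with a threshold of 0.05. Deviations of batch 1 correlated between DC and WT (r = 0.529 over 25119 regions), and the labels give the batch. The recovery and the fit were tested on simulated data. Gene ends came from RefSeq on GRCm38.p6, for protein-coding genes.

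Named regions were the 10 best-ranked, those near genes of the 18 lists, those at the edge of the rule, those called in DC against WT, the best-ranked at gene ends, genes with several regions, and the 10 highest against the DE limit. Members, lists and role groups were chosen with earlier results of these data known. Alternatives varied thresholds, overlap, scaling, windows, batches and libraries. Intervals cover counting error only.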

Additional observations from a re-analysis of the deposited data

How the results depend on the processing

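The number of regions stayed within a factor of 1.5 of 279 when peaks closer than 200 bp were joined (296), with an overlap of at least 50% (263), with −log10 q of at least 2 in every list (233) or in the DC and WT lists (207), and, chosen after seeing the data, for backgrounds under 5 times the floor (240). It was 66 with −log10 q of at least 5 in DC and WT. Leaving out a library gave 341 to 1629 regions, since that relaxes the rule, and 1 batch alone gave 7028 (batch 1) and 2143 (batch 2). The share without a DE call, 1.11%, was 0.968%, 0.86% and 0.331% under the 3 −log10 q settings, 1.34% to 6.49% without a library, and 19.4% and 6.87% in batches 1 and 2 alone.

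With gene ends widened to 5 kb, 37.6% of the regions lay at gene ends, 38% inside genes and 24.4% between them. Within 50 kb, 12 listed genes had a region (4.24%, against 3.2% of all genes), and within 1 kb 6 (2.12%, against 0.977%). With batch as a replicate block, 4 of the 279 were called between DC and WT, against 0 without; added after seeing the data, the block gave 76 with floor scaling and 3 with quantile normalization. All 76 (27.2% of the 279) were higher in DC, against 56.6% of all 25119 regions under that scaling. The 3 were 2 higher and 1 lower, and the region near Alkbh8, at -0.52 in log2, was no longer lower under either: it was at 0.34 with floor scaling, with or without the block, at 0 with quantile normalization and at 0.23 with the deposited fold. Floor scaling, quantile normalization, the deposited fold in place of pileup, a mean pileup of at least 10 and each left-out library gave 0 without the block. The median log2 difference of the 279 changed sign with floor scaling (0.65) and with the deposited fold (0.26). The count over the DE limit was 234 to 278 under all 5 alternatives, those of 1 batch alone being added later. The planned motif counts in windows around summits were not run, since no genome sequence was used here. The low pileup of the 279 regions limits what a missing DE call shows. The low pileup of DC replicate 2 bears on which regions had the DC calls that the rule requires.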

Other observations

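Outside the autosomes, 4 of 467 regions on chromosome X called in both DC and both WT libraries (0.857%) had no DE call, and 1 of 18 on chromosome Y or unplaced sequence. Of the 1812 autosomal regions with a single DE call, 462 had it in DE replicate 1 and 1350 in DE replicate 2. Regions near 3 known regulators of blood cells, chosen after their values were seen, lay outside the 10 kb window. A region 11.8 kb from Gata2, a stem and progenitor factor, had 13 and 8 fragments in DC and 11 and 11 in WT. A region 13.5 kb from Irf1, an interferon-response factor, had 9 and 13 fragments in DC and 12 and 10 in WT. Both exceeded the DE limit in all 4 libraries, with smallest ratios of 1.60 and 1.11. A region 116 kb from Myc, overlapping the non-coding gene Pvt1, had 12 and 8 fragments in DC and 12 and 10 in WT. The Myc region also exceeded the limit in all 4 libraries, with a smallest ratio of 1.48. A DE replicate 2 peak lay 1740 bp from it.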
